A study of Homo sapiens and Mus musculus with 29 samples.

Results

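MYC, PVT1 and the Tribbles genes TRIB1, TRIB2 and TRIB3 were followed in RNA-seq of pancreatic cancer xenografts and of mouse pancreatic cancer cell lines. The genes were chosen by symbol, with earlier values of MYC, PVT1 and TRIB1 in primary tumors and of Myc and Pvt1 in the mouse lines known, so those values, their differences and their correlations are described here without a test. All 5 symbols were found among the 58719 genes of the human table, and all 5 mouse orthologs among the 54446 genes of the mouse table. The 21 human libraries came from HPAF-II, a pancreatic adenocarcinoma cell line of the classical subtype, grown after injection into the pancreas of immunodeficient NSG mice of about 8 weeks. Control cells (Cas9 and empty vector) gave 3 tumors, and cells with Cas9 and lentiviral FOXA1 overexpression (FOXA1-OE) gave another 3. From cells labeled HNF4G-KO with empty vector there were 4 tumors plus 2 metastases. From those labeled HNF4G-KO with FOXA1-OE there were 5 tumors plus 4 metastases. The HNF4G-KO cells were pooled CRISPR clones with heterozygous frameshift mutations, and no metastasis of control or FOXA1-OE cells was sequenced. HNF4G-KO + FOXA1-OE tumors 2 and 3 came from 1 mouse and were averaged, as were metastases 1 and 2, which leaves 4 and 3 mice. The 8 mouse libraries were 4 replicates of a cell line from a primary tumor of KPC mice, a genetic model of pancreatic cancer, and 4 of a line from the matched liver metastasis. Values are RPKM, read numbers scaled by exon length and by the reads of the library.

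MYC is a transcription factor that binds DNA with MAX and raises genes of ribosome production, nucleotide synthesis and cell growth. PVT1 is a long noncoding RNA gene downstream of MYC, and its promoter is known to compete with that of MYC for enhancers. The Tribbles proteins are pseudokinases: TRIB1 and TRIB2 bring the ubiquitin ligase COP1 to the C/EBP alpha transcription factor, which is then degraded, whereas TRIB3 is a target of ATF4 and CHOP in the stress response and binds AKT and ATF4.

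TRIB2 was lower in every metastasis than in every primary tumor, a difference that passed a test only under some settings. Its promoter window is shown with that of TRIB3, the family member known as a stress target. The windows hold 250 bases before and 50 after the transcription start, are taken from RefSeq on GRCh38.p14 and run 5′ to 3′ on the plus strand. The TRIB2 window is chr2:12716686-12716985, and the first of 3 overlapping TRIB3 windows is chr20:381045-381344. Capitals mark matches on either strand to any of 3 motifs, the E-box CACGTG bound by MYC with MAX, the forkhead motif TGTTTAC bound by FOXA and FOXO factors, and the C/EBP-ATF motif TGATGNAA, and no match overlapped another.
TRIB2: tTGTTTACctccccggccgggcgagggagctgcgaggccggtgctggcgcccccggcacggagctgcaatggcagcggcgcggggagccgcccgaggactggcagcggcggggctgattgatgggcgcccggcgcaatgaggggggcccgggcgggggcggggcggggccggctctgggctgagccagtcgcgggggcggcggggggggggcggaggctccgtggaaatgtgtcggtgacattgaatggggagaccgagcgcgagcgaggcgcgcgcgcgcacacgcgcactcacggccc
TRIB3: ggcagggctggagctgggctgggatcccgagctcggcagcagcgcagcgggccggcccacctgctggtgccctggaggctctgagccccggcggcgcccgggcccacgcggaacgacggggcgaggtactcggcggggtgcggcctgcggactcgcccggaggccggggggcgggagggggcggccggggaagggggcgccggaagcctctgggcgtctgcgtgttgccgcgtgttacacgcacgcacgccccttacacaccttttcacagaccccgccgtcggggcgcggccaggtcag

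The TRIB2 window held 1 match, a forkhead motif that starts 249 bases before the transcription start. Of 35116 windows of this length, 3.42% held that motif, 7.26% the E-box and 3.62% the C/EBP-ATF motif. None of these letters was found in the 3 TRIB3 windows. A match describes the sequence and says nothing of binding in these cells.

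TRIB2 (ENSG00000071575.11) lies on chromosome 2 from 12716910 to 12742734 of GRCh38, and TRIB3 (ENSG00000101255.10) on chromosome 20 from 362835 to 397559, both on the plus strand. The other members share the long arm of chromosome 8, also on the plus strand: TRIB1 (ENSG00000173334.3) from 125430358 to 125438403, MYC (ENSG00000136997.17) from 127735434 to 127742951 and PVT1 (ENSG00000249859.9) from 127794526 to 128187101. PVT1 begins 51.6 kb after the end of MYC, and TRIB1 ends 2297 kb before MYC begins. The mouse genes keep this order on chromosome 15 of GRCm38, where Pvt1 begins 47.6 kb after Myc and Trib1 ends 2328 kb before it.

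The smallest steps of the RPKM values gave 33.1 to 69.6 M counted reads (M for mega) per HPAF-II library and 30.1 to 44.4 M per KPC library. Every member rested on at least 154 reads in every library, the fewest for TRIB2 in a metastasis, so that counting error was small beside the spread between mice. HNF4G mRNA went against its label, since tumors labeled HNF4G-KO held 7.09 ± 1.10 RPKM (SD, n = 4) and control tumors 2.84 ± 0.547 (SD, n = 3), and a frameshift need not remove the mRNA. FOXA1 mRNA was 0.519 to 0.932 RPKM in control and 5.09 ± 3.86 (SD, n = 3) in FOXA1-OE tumors, but FOXA1-OE tumor 3 had only 0.763. Of the 4 metastases labeled HNF4G-KO + FOXA1-OE, metastasis 2 held 17.9 RPKM of FOXA1. Metastases 1, 3 and 4 held 0.535, 1.30 and 1.55, no more than the 1.26 to 1.87 of HNF4G-KO tumors. The HNF4G-KO metastases held 0.362 and 0.602, so metastases 3 and 4 lay above both of these and metastasis 1 between them. Against metastases without FOXA1-OE, only metastasis 1 thus went against the label. The group name is kept below as a label only. FOXA1-OE tumor 3 and HNF4G-KO + FOXA1-OE tumor 5 stood apart from the other libraries, with a summed level of 9 blood and spleen markers, led by the lysozyme gene LYZ, of 59.1 and 146 RPKM against 470 to 746 elsewhere. LYZ alone ran from 57.4 to 744 RPKM over the tumors, so this sum is close to the level of 1 gene. In the KPC cell lines, which hold no host tissue, the sum was 1566 to 3664 RPKM. There only 2 of the 9 markers, Cd68 and Spp1, entered the fit, so the KPC sum rests on other genes. It cannot tell whether LYZ in the xenografts came from host cells, which was not tested. The xenograft sum is not read as host content. All 7 epithelial markers were above 0 in every library.

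Levels of the 5 genes fell into a high and a low class. MYC, TRIB1 and TRIB3 had group means between 17.7 and 49.9 RPKM, and PVT1 and TRIB2 between 1.03 and 5.91. In control tumors the order was MYC, 46.1 ± 8.07 RPKM, TRIB3, 31.7 ± 8.82, TRIB1, 29.0 ± 1.14, PVT1, 4.34 ± 0.713, and TRIB2, 2.81 ± 0.749 (SD, n = 3 for each). Neighbors in this order overlapped between libraries, MYC with TRIB3, TRIB3 with TRIB1 and PVT1 with TRIB2, while TRIB1 and PVT1 were far apart. Levels of different genes are comparable here only per length of exon, and PVT1 was scaled by 5428 bases of exon in the deposited table against 25431 in GENCODE 44. MYC was scaled by 3001 bases against 6109, so its place in this order rests on the lengths used.

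**Figure D1:**
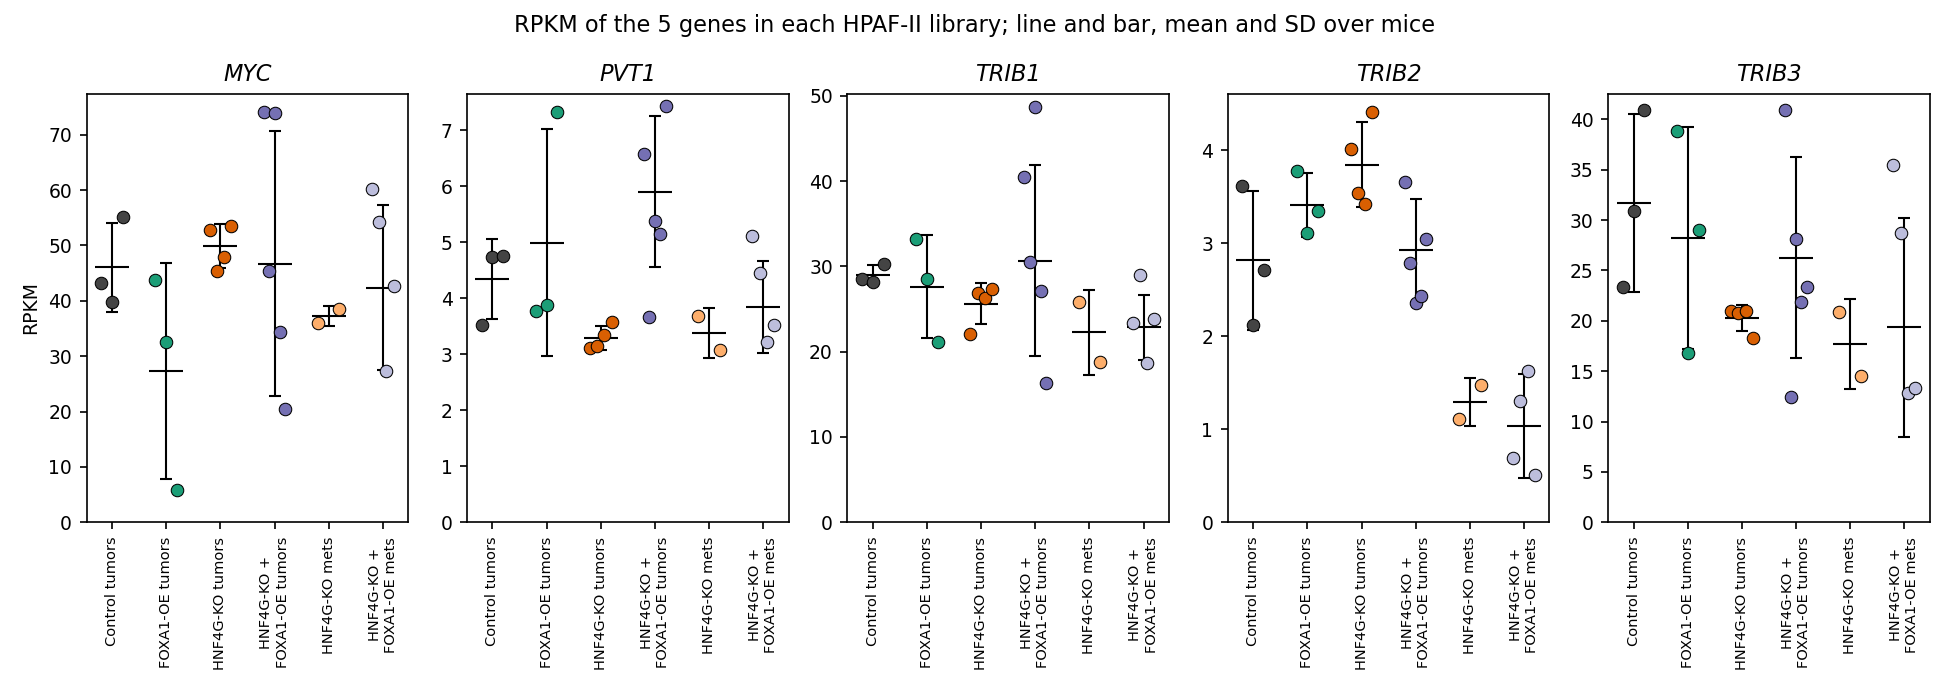
RPKM (linear axis from 0) of MYC, PVT1, TRIB1, TRIB2 and TRIB3 in each of the 21 HPAF-II libraries, 1 point per library, with the mean and SD over mice of each group. All 6 metastases lie below all 15 tumors for TRIB2 and overlap with them for the other genes, and FOXA1-OE tumor 3 is the lowest MYC point at 5.75.

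TRIB2, the Tribbles member with the lowest level, was lower in every metastasis than in every primary tumor. The HNF4G-KO tumors had 4.01, 3.54, 3.42 and 4.41 RPKM, and the peritoneal metastases of the same cells 1.11 and 1.48. With FOXA1-OE in addition, the tumors had 3.66, 2.78, 2.36, 2.44 and 3.04 RPKM. Metastases of these cells had 0.693 in the spleen, 1.30 and 1.62 in peritoneal fat and 0.503 in the peritoneum, and the value of 1.30 belongs to metastasis 2, the one with high FOXA1 mRNA. The groups did not overlap on either background, and the 6 control and FOXA1-OE tumors, at 2.12 to 3.78 RPKM, also lay above every metastasis. Of 14229 genes, 0.0843% were lower in all 6 metastases than in all 15 tumors. Within the HNF4G-KO group alone, where 2 metastases were compared with 4 tumors, 33.0% of 14099 genes did not overlap in one direction or the other, and within HNF4G-KO + FOXA1-OE 0.787% were lower in every metastasis.

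**Figure D2:**
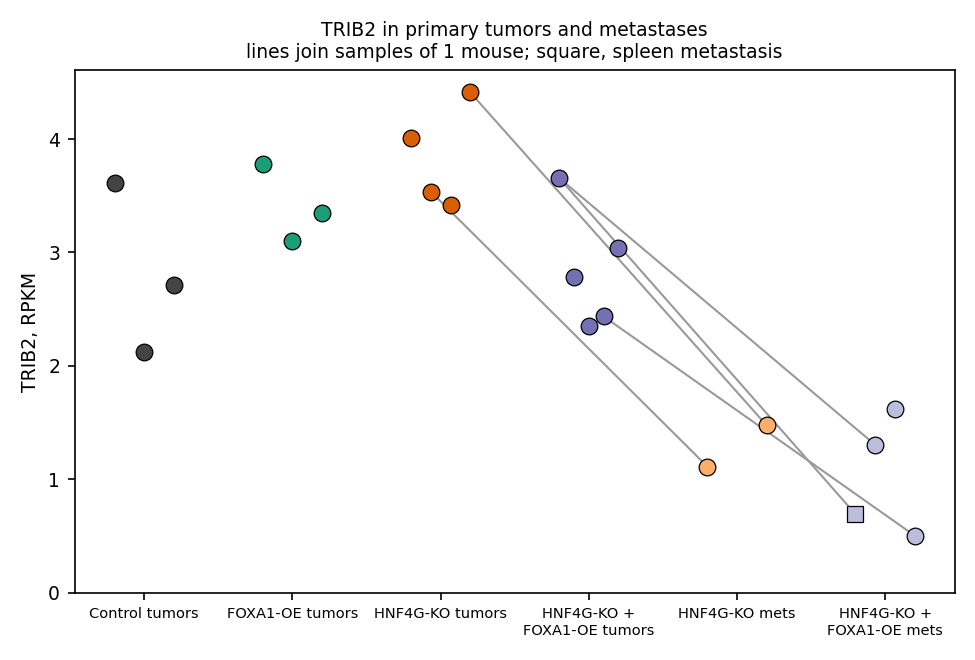
TRIB2 in RPKM (linear axis from 0) in the 4 tumor and 2 metastasis groups, 1 point per library, with gray lines joining tumor and metastasis of 1 mouse and a square for the spleen metastasis. All 5 lines fall, and the highest metastasis, at 1.62, is below the lowest tumor, at 2.12.

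In limma fitted across 14099 genes, TRIB2 differed between metastases and tumors by -1.08 on the log2(RPKM + 1) scale in HNF4G-KO mice (SE 0.21, adjusted p = 0.132) and by -0.97 in HNF4G-KO + FOXA1-OE mice (SE 0.19, adjusted p = 0.202). Neither passed the threshold of 0.05 on the adjusted p, which 0.0426% and 0.00709% of all genes did, although TRIB2 ranked 22 and 11 by p. Tumor and metastasis of 1 animal were paired in 4 mice. With mouse as a replicate block TRIB2 passed in both groups, at -1.09 (SE 0.18, adjusted p = 0.0265) and -1.03 (SE 0.16, adjusted p = 0.0423), where 0.546% and 0.0780% of genes passed. The mean of both differences, a contrast chosen after these values were seen, was -1.03 (SE 0.14, adjusted p = 0.0172), with 0.135% of genes called. It no longer passed without HNF4G-KO tumor 3 (limma adjusted p = 0.0558), without the mice of HNF4G-KO tumor 4 (0.176) or of HNF4G-KO + FOXA1-OE tumors 1 (0.112) and 4 (0.0683), each left out alone, and it did without any of the other 5 mice. Within mice, TRIB2 was lower in the metastasis in 5 of 5 comparisons from 4 mice, with differences of -1.46 to -1.02 on the same scale. TRIB1 was also lower in 5 of 5, and MYC, PVT1 and TRIB3 in 4 of 5 each. The share of all genes lower in all 5 was not computed. The TRIB2 difference was not shown to vary between the groups (0.10, SE 0.28, adjusted p = 0.862).

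The log2(RPKM + 1) scale understates the change of a gene at this level: with a pseudocount of 0.1 the differences were -1.505 and -1.534. Without HNF4G-KO + FOXA1-OE tumor 4 and its metastasis, the difference in that group was -0.84 (limma adjusted p = 0.916). In bulk samples fewer cells of a type and less RNA per cell cannot be told apart. Host pancreas markers moved with the site: the summed level of 9 markers was 0.158 to 0.408 RPKM in the metastases, with 4 to 6 markers at 0, and 0.123 to 467 in the tumors. INS and CPB1 were at 0 in all 6 metastases. Among the tumors the lowest sum, 0.123 with 5 markers at 0, came with 2.36 RPKM of TRIB2 in HNF4G-KO + FOXA1-OE tumor 3, and the highest, 467, with 2.12 in control tumor 2. The part of host pancreas in the TRIB2 difference was not tested. The summed level of 11 host stroma markers was 89.2 to 486 RPKM in the metastases and 65.1 to 231 in the tumors, with no marker at 0 in any metastasis, and its part in the TRIB2 difference was not tested. That sum was 716 to 1355 RPKM in the KPC cell lines, which hold no host tissue. Only 4 of the 11 markers entered the fit there, so the other markers cannot be judged from these lines. Of 8 stroma markers tested in HPAF-II, 8 had a log2 fold change above 0 in the HNF4G-KO metastases. Their median was 1.34 against -0.09 over all genes tested. With FOXA1-OE 7 of 8 did, with a median of 0.98 against 0.05, and no stroma marker passed in either group. FOXA1 was, like TRIB2, lower in the metastases, with differences of -0.73 and -1.53 (limma adjusted p = 0.399 and 0.262) that did not pass.

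TRIB1 and TRIB3, the other Tribbles members, did not pass in the metastases. TRIB1 was 25.8 and 18.7 RPKM in the HNF4G-KO metastases against 22.1 to 27.4 in their tumors, and 18.7 to 29.0 against 16.4 to 48.7 with FOXA1-OE. The groups overlapped in both cases, with differences of -0.21 (SE 0.30) and -0.34 (SE 0.27) and limma adjusted p = 0.790 and 0.626. Within mice, TRIB1 was lower in the metastasis in 5 of 5 comparisons from 4 mice, by differences of -0.76 to -0.05. The share of all genes that did the same was not computed. TRIB3 was 20.8 and 14.5 RPKM against 18.3 to 21.002, and 12.9 to 35.5 against 12.5 to 41.0, again with overlap (-0.21, SE 0.35, and -0.48, SE 0.31, limma adjusted p = 0.825 and 0.576).

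MYC was 36.0 and 38.6 RPKM in the HNF4G-KO metastases, below the 45.4 to 53.5 of all 4 tumors, and 33.0% of genes did not overlap there. Its difference was -0.41 (SE 0.40, limma adjusted p = 0.679). In HNF4G-KO + FOXA1-OE mice the metastases had 60.1, 54.2, 27.4 and 42.7 RPKM and the tumors 74.0, 45.5, 74.0, 34.3 and 20.5, which overlap (-0.04, SE 0.36, limma adjusted p = 0.970). PVT1 was 3.69 and 3.07 RPKM in the HNF4G-KO metastases against 3.10 to 3.58 in their tumors (0.03, SE 0.19, limma adjusted p = 0.963). With FOXA1-OE it was 3.22 to 5.12 against 3.66 to 7.44, a difference of -0.50 (SE 0.17) that did not pass after adjustment (limma adjusted p = 0.460).

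**Figure D3:**
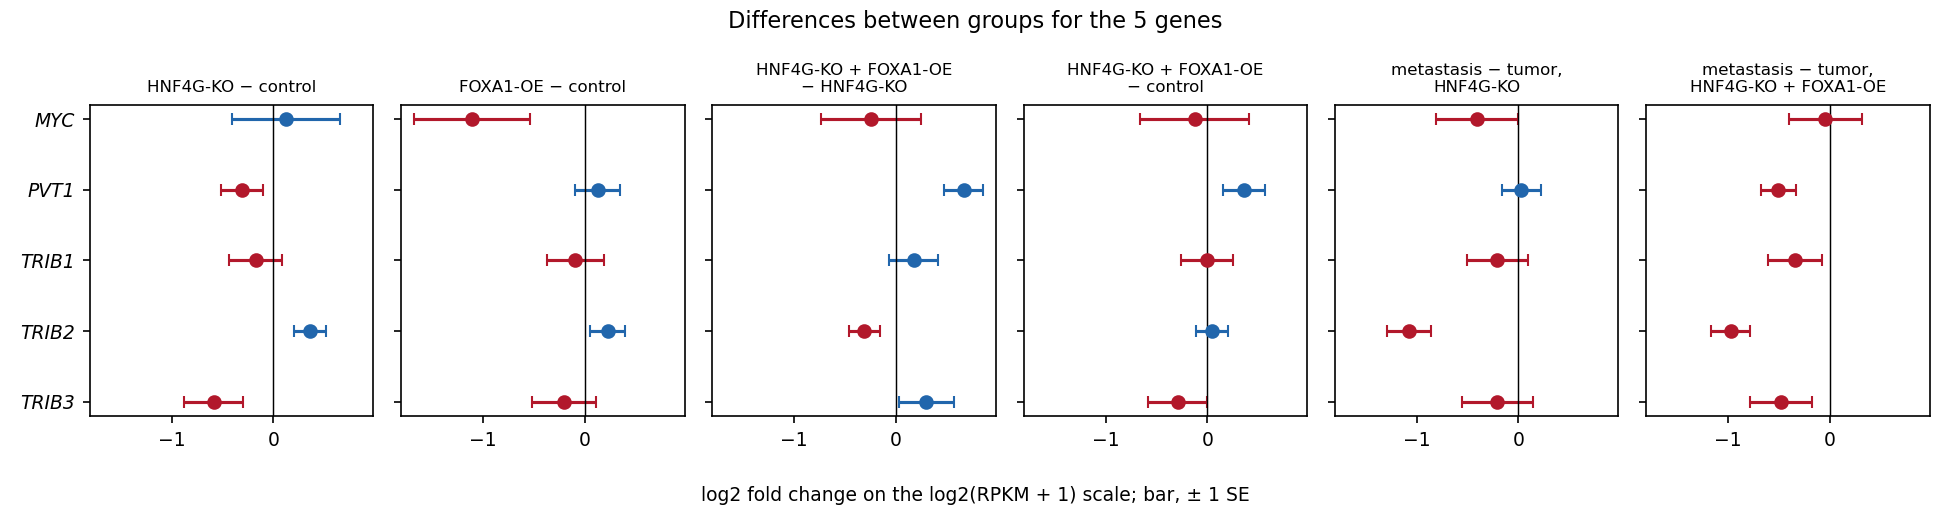
Differences between groups for the 5 genes as log2 fold changes on the log2(RPKM + 1) scale (x axis), with bars of 1 SE from limma, in 4 comparisons of primary tumors and 2 of metastases with tumors. TRIB2 in the metastases, at -1.08 and -0.97, lies farther from 0 in units of its SE than any other point.

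In primary tumors labeled HNF4G-KO, 1736 of 14269 genes passed the threshold against control tumors (12.2%), and neither TRIB2 nor TRIB3 was among them. TRIB2 was 3.61, 2.12 and 2.71 RPKM in control tumors and 3.42 to 4.41 with HNF4G-KO, a difference of 0.36 (SE 0.16, limma adjusted p = 0.147). TRIB3 was 23.3, 30.9 and 40.9 RPKM in control tumors and 21.002, 20.77, 20.95 and 18.33 with HNF4G-KO. Every HNF4G-KO tumor was therefore below every control tumor for TRIB3, as were 21.3% of all genes, and the difference was -0.59 (SE 0.29, limma adjusted p = 0.190). Fitted on these 2 groups alone, TRIB3 passed (limma adjusted p = 0.0246), in a fit that called 5595 genes.

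TRIB1 was 28.5, 28.2 and 30.3 RPKM in control tumors and 22.1, 26.8, 26.3 and 27.4 with HNF4G-KO. Every HNF4G-KO tumor was lower, as for 21.3% of all genes, with a difference of -0.18 (SE 0.26). MYC overlapped between them, at 43.3, 39.8 and 55.2 RPKM in control and 52.7, 45.4, 48.0 and 53.5 in HNF4G-KO tumors (0.12, SE 0.53). PVT1 was 3.51, 4.74 and 4.76 RPKM against 3.10, 3.15, 3.34 and 3.58, with overlap at 1 tumor (-0.31, SE 0.21).

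FOXA1-OE alone called no gene against control (0% of 14269, smallest limma adjusted p = 0.484), with 652 genes at an unadjusted p under 0.05. TRIB2 was 3.78, 3.11 and 3.35 RPKM (0.23, SE 0.17) and TRIB3 38.8, 16.8 and 29.0 (-0.20, SE 0.31), with limma adjusted p = 0.840 and 0.872. MYC was 43.8, 32.5 and 5.75 RPKM, the last in tumor 3, the library that stands apart. Its difference of -1.11 (SE 0.57) rests on that library. In the same tumor PVT1 was 7.33 RPKM against 3.78 and 3.88 in the others, and TRIB1 was 21.2 against 33.2 and 28.5.

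FOXA1-OE in HNF4G-KO cells was compared with HNF4G-KO alone, a comparison that shares the HNF4G-KO tumors with the one above. Of 14269 genes, 0.0561% passed. PVT1 was 6.58, 3.66, 5.38, 5.16 and 7.44 RPKM and thus above every HNF4G-KO tumor, as were 1.10% of genes, with a difference of 0.67 (SE 0.19) that is described here and not tested. The gap is narrow, since the lowest of these values, 3.66 in HNF4G-KO + FOXA1-OE tumor 2, lay just above the highest HNF4G-KO tumor at 3.58. MYC spread from 20.5 to 74.0 RPKM and TRIB1 from 16.4 to 48.7, on both sides of the HNF4G-KO tumors (-0.25, SE 0.49, and 0.17, SE 0.24). TRIB2 differed by -0.31 (SE 0.15, limma adjusted p = 0.251) and TRIB3 by 0.30 (SE 0.27, limma adjusted p = 0.494). Against control tumors, where 4.70% of genes passed, TRIB2 (0.05, SE 0.16) and TRIB3 (-0.29, SE 0.29) did not (limma adjusted p = 0.905 and 0.637). The FOXA1-OE effect on TRIB2 with HNF4G-KO minus that without was -0.53 (SE 0.23, limma adjusted p = 0.531).

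Genes of the MYC network were read from gene lists. Of 29 measured MYC targets, 4 were lower and none higher in HNF4G-KO than in control tumors, against 5.99% of all genes called lower and 6.18% higher. The log2 fold change was below 0 in 26 of 29, with a median of -0.40 against 0.01 over all genes tested. Against the same control tumors it was below 0 in 22 of 29 with FOXA1-OE (median -0.25 against -0.03). With HNF4G-KO + FOXA1-OE it was below 0 in 23 of 29 (-0.35 against -0.06), so this shift was not particular to HNF4G-KO. Of the nucleolar genes, FBL, the methyltransferase of ribosomal RNA, fell in HNF4G-KO tumors (-0.96, SE 0.21, limma adjusted p = 0.0151). NPM1, nucleophosmin, fell as well (-0.70, SE 0.21, limma adjusted p = 0.0488). SRM, the spermidine synthase, fell by 0.74 (SE 0.22, limma adjusted p = 0.0449), and MCM5, a subunit of the replicative helicase, by 0.60 (SE 0.14, limma adjusted p = 0.0160). Without control tumor 2 or without control tumor 3 no MYC target passed, and without FOXA1-OE tumor 3 and HNF4G-KO + FOXA1-OE tumor 5 the number was 11. In HNF4G-KO against control tumors the 7 host stroma markers tested all had a log2 fold change below 0, with a median of -1.04. VIM passed there (-1.36, SE 0.21, limma adjusted p = 0.00255), as did C1QB and SPP1 of the blood and spleen list. All 7 were also below 0 against the same controls in FOXA1-OE (median -0.70) and in HNF4G-KO + FOXA1-OE tumors (-0.93). Control tumors 1, 2 and 3 had stroma sums of 231, 229 and 99.0 RPKM. The 11 markers of the stroma list summed to 716 to 1355 RPKM in the KPC cell lines, which hold no host tissue. Only 4 of the 11, Vim among them, entered the fit there, so the other markers cannot be judged from these lines. The part of these markers in the difference was not tested.

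In HNF4G-KO + FOXA1-OE against control tumors 1 of 29 MYC targets was lower, MCM5 (-0.55, SE 0.14, limma adjusted p = 0.0350), against 2.55% of genes called lower and 2.14% higher. Among 10 measured partners of MYC in its network, MXD1, a MAX partner that opposes MYC (1.26, SE 0.28, limma adjusted p = 0.0154), and MLXIP, the glucose-sensing MondoA (0.80, SE 0.22, limma adjusted p = 0.0350), rose in HNF4G-KO against control tumors, where 6.18% of all genes did. Neither passed without control tumor 2 or without control tumor 3. MLXIP also rose in HNF4G-KO + FOXA1-OE against control tumors (0.93, SE 0.22, limma adjusted p = 0.0310), but not without control tumor 2, control tumor 3 or HNF4G-KO + FOXA1-OE tumor 1.

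Of 9 measured neighbors of MYC on the chromosome, the noncoding gene CASC19 rose against control tumors in HNF4G-KO (0.85, SE 0.15, limma adjusted p = 0.00593) and in HNF4G-KO + FOXA1-OE (1.05, SE 0.15, limma adjusted p = 0.00293), and no other neighbor passed. A count of 1 in 9 is near the 12.2% and 4.70% of all genes called in these comparisons, given so few neighbors, and is not a result about the neighbors. None of 11 Tribbles partners, among them COP1, CEBPA and AKT1, passed in any of the 4 tumor comparisons, with up to 4 under other settings, and 2 of 25 targets of ATF4 and CHOP did in HNF4G-KO against control tumors, no more than the 12.2% of all genes called there. These were PHGDH, the first enzyme of serine synthesis (-0.84, SE 0.15, limma adjusted p = 0.00643), and SARS1, the seryl-tRNA synthetase (-0.89, SE 0.19, limma adjusted p = 0.0126), both lower in HNF4G-KO than in control tumors, and without control tumor 3 only 1 target passed. In the metastases no gene of these 5 lists passed against the tumors.

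Correlations between members were computed over the 14 mice with a primary tumor, as deviations of log2(RPKM + 1) from the group mean. The values of MYC, PVT1 and TRIB1 in these tumors were known, so their 3 correlations are given without a test. For MYC and TRIB1 Pearson's r was 0.80 and Spearman's rho 0.82. Leaving out FOXA1-OE tumors 1 and 3, the mice farthest from the median of MYC, r was 0.92, and leaving out FOXA1-OE tumor 3 and HNF4G-KO + FOXA1-OE tumor 5 it was 0.80. MYC and PVT1 had r = -0.72 and rho = -0.47. That sign rests on FOXA1-OE tumor 3 and HNF4G-KO + FOXA1-OE tumor 5, which held 5.75 and 20.5 RPKM of MYC with 7.33 and 7.44 of PVT1, since without them r was 0.35. PVT1 and TRIB1 had r = -0.55 and rho = -0.39, and r turned to 0.26 without the same libraries.

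**Figure D4:**
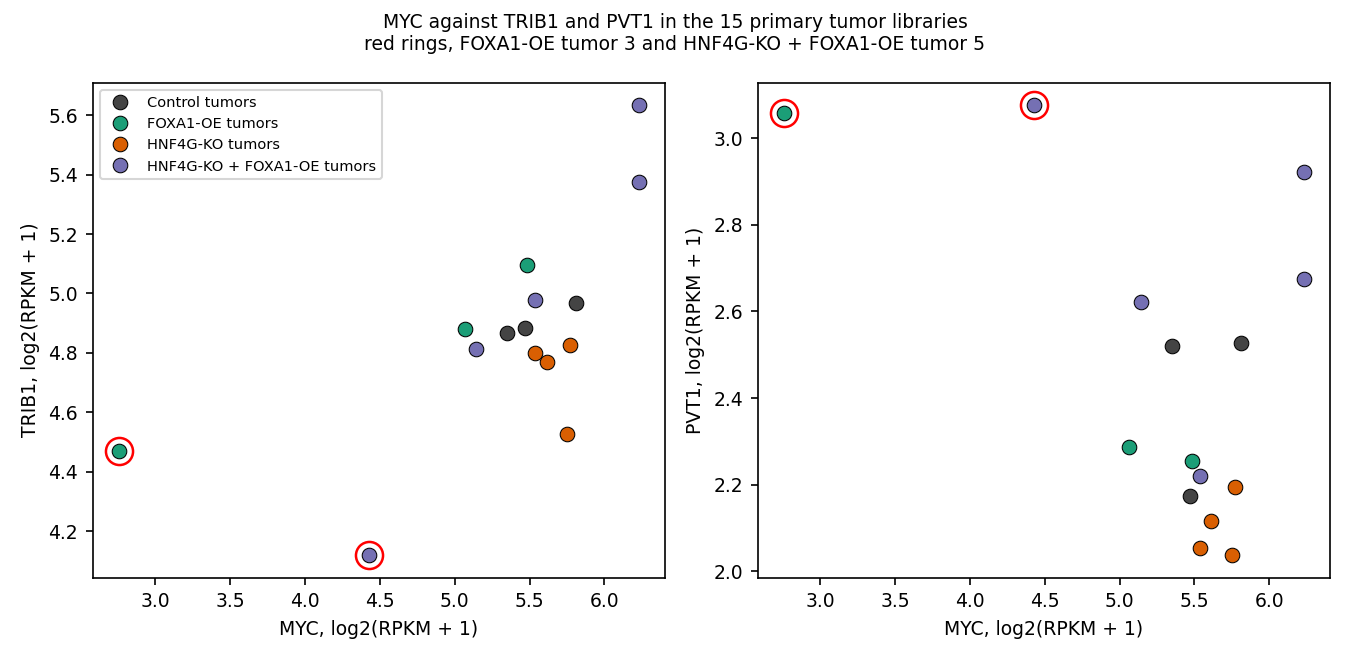
MYC (x axis) against TRIB1 (left) and PVT1 (right), all as log2(RPKM + 1), in the 15 primary tumor libraries colored by group, with red rings around FOXA1-OE tumor 3 and HNF4G-KO + FOXA1-OE tumor 5. The ringed libraries are low in MYC and TRIB1 and highest in PVT1.

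None of the 7 pairs with TRIB2 or TRIB3 passed, with permutation p adjusted over 10 pairs from 0.742 to 0.899. PVT1 and TRIB3 had r = 0.37, and the other 6 pairs lay between 0.04 and 0.30, among them TRIB1 with TRIB2 at 0.11, TRIB1 with TRIB3 at 0.23 and TRIB2 with TRIB3 at 0.30. Several of these values rest on the libraries that stand apart. Without FOXA1-OE tumor 3 and HNF4G-KO + FOXA1-OE tumor 5, r was 0.63 for MYC with TRIB3, 0.59 for MYC with TRIB2, 0.63 for PVT1 with TRIB3, 0.44 for TRIB1 with TRIB3 and 0.39 for TRIB1 with TRIB2, and none of these passed (adjusted permutation p from 0.447 to 0.579).

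The genes most like each member over all 21 HPAF-II libraries, by Pearson's r of log2(RPKM + 1) among 14229 genes, are given as a description. For MYC these were PRMT5 (0.94), SQSTM1 (0.93) and TFIP11 (0.92), and for TRIB1 LRATD2 (0.87), its neighbor on the chromosome, SNAI2 (0.87) and HCCS (0.85). TRIB2 was most like PARM1 (0.87), AIF1L (0.84) and GPR173 (0.84). For PVT1 they were SH3BP1 (0.90), KRT7 (0.89) and DPM2 (0.89), and for TRIB3 SLC25A33 (0.89), RELB (0.86) and NEURL3 (0.85). No member was among the 3 genes most like another member, and the nearest was MYC at rank 394 for TRIB1 (r = 0.58). In the other direction TRIB1 ranked 2141 for MYC. These libraries share mice and groups, and the 2 libraries that stand apart enter each value.

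In the KPC lines none of 12585 genes passed between liver metastasis and tumor line (0%, 109 at an unadjusted p under 0.05). The labels do not say whether replicates were separate cultures, so the spread may be technical. Trib2 was 2.23, 1.95, 4.72 and 4.45 RPKM in tumor replicates 1 to 4 and 3.41, 4.14, 2.27 and 2.57 in metastasis replicates 1 to 4. Trib3 was 4.39, 4.62, 34.7 and 12.2 RPKM in the tumor line and 12.8, 13.8, 17.2 and 5.22 in the metastasis line. Replicates 1 and 2 were thus higher in the metastasis line for both genes, and replicates 3 and 4 lower. Taken apart, replicates 1 and 2 gave differences of 0.62 for Trib2 and 1.38 for Trib3, and replicates 3 and 4 gave -0.71 and -1.03, which restates this pattern and is given without a test. Whether every KPC library carries its own label was not tested, and the directions of Trib2 and Trib3 depend on it. Over all 8 libraries the differences were -0.04 (SE 0.25) and 0.17 (SE 0.60), each with limma adjusted p = 1.

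**Figure D5:**
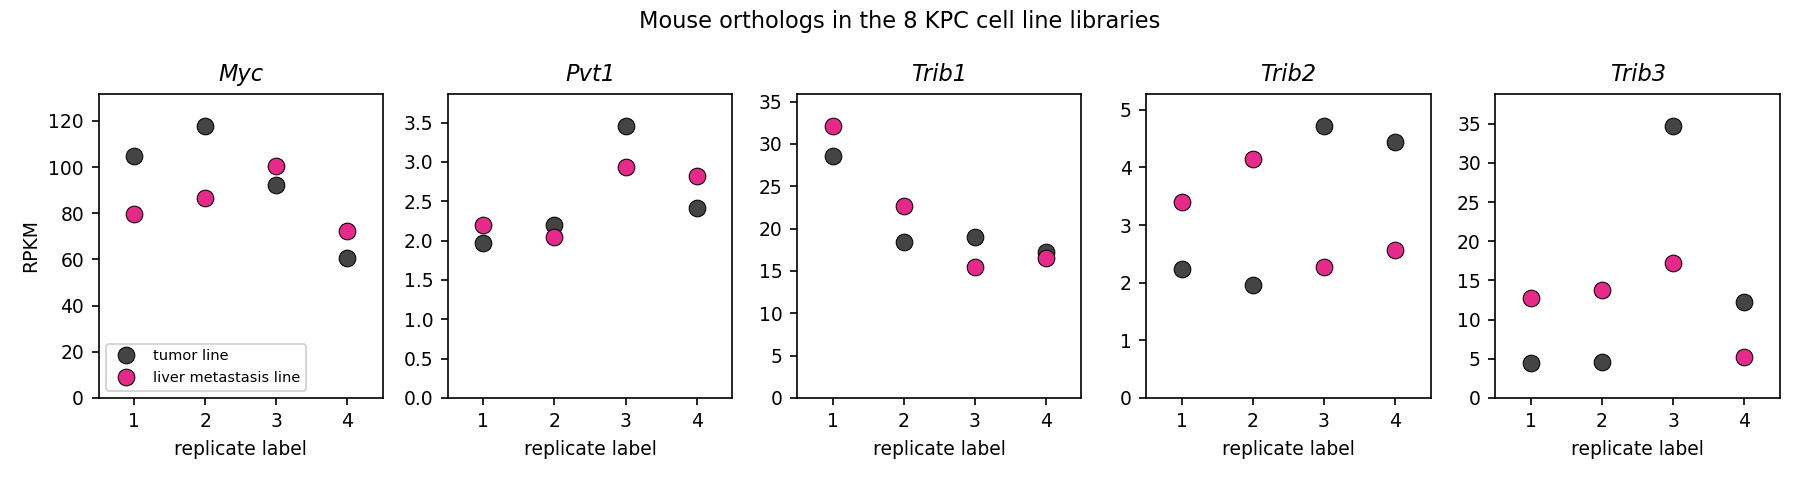
RPKM (linear axis from 0) of Myc, Pvt1, Trib1, Trib2 and Trib3 by replicate label in the KPC tumor line (dark) and the liver metastasis line (pink), 1 point per library. Trib2 and Trib3 are higher in the metastasis line in replicates 1 and 2 and lower in replicates 3 and 4.

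Trib1 was 28.5, 18.4, 19.0 and 17.2 RPKM in the tumor line and 32.1, 22.7, 15.4 and 16.5 in the metastasis line (0.03, SE 0.24, limma adjusted p = 1). Myc was 60.6 to 118 and 72.2 to 100.4 RPKM, and Pvt1 1.97 to 3.45 and 2.04 to 2.93, all with overlap and with differences of -0.12 (SE 0.21) and 0.00 (SE 0.16). No gene of the 5 lists passed in the KPC lines.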

How the data were processed

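RNA-seq libraries (TruSeq stranded mRNA, 21 of HPAF-II xenografts and 8 of KPC lines) were aligned by the authors with STAR 2.6.1a and counted with featureCounts 2.0.4, per the submitters' processing notes, which name hg38 and mm10 (for human reads GRCh37 stands in the study's methods). Only the deposited RPKM values of 58719 human and 54446 mouse genes were used, and 12 columns of the mouse table that belong to no sample were left out. The counting strand is not given in the sources used here. Names and coordinates came from GENCODE 44 and M21, matching 58250 and 54409 identifiers.

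Values were analyzed as log2(RPKM + 1) for genes whose mean over a fit reached 1 RPKM, with limma 3.58.1 (lmFit, eBayes with a trend) in R 4.3.3 and Benjamini-Hochberg adjustment over all genes tested, threshold 0.05. Samples of 1 kind from 1 mouse were averaged. Tumors and metastases were paired by animal per the labels, and their deviations from the group means correlated at 0.02 to 0.36 over genes (consensus correlation 0.34). Correlations with TRIB2 or TRIB3 were tested with 100000 permutations within groups. Read depth was inferred from the smallest RPKM steps, where 99.8% to 100% of low values came out whole within 0.05. The fits were tested on simulated data.

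Members and lists were chosen with earlier results of these data known. Named genes were the members and orthologs, HNF4G and FOXA1, up to 3 called genes per list and comparison with the largest change, and the 3 genes most like each member. MCM5 (HNF4G-KO against control) and LYZ were named after their values were seen.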

Additional observations from a re-analysis of the deposited data

Results flagged for a closer look

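In 20 groups of a member's values, 2 held a value far from the others, where chance gives about 1 in 20. TRIB3 in HNF4G-KO tumor 4 was 18.3 RPKM, against 20.77 to 21.002 in the other 3 tumors. Trib1 in KPC tumor line replicate 1 was 28.5 RPKM, against 17.2 to 19.0 in the other 3 libraries.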

How the results depend on the processing

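Of 36 results, 18 kept their direction and their side of the threshold under every alternative run. In HNF4G-KO against control tumors, TRIB3 passed when only these groups entered the fit (-0.59, limma adjusted p = 0.0246). With mouse as the replicate block, TRIB2 passed in the metastases of both groups (-1.09 and -1.03), and the block by mouse, tumor number or KPC replicate number changed no other call of a member. Tumor and KPC numbers did not pair the samples. Without the filter on low values, the mean TRIB2 difference in metastases no longer passed (-1.03, limma adjusted p = 0.0627), and leaving out single mice it ranged from -1.13 to -0.96. Leaving out single mice moved TRIB3 between -0.47 and 0.12 in FOXA1-OE against control tumors, and TRIB2 between -0.0862 and 0.19 in HNF4G-KO + FOXA1-OE against control tumors. In HNF4G-KO metastases TRIB1 ranged from -0.41 to 0.0455 and PVT1 from -0.0911 to 0.16. MYC in HNF4G-KO + FOXA1-OE metastases ranged from -0.37 to 0.23, with 0.11 without the mouse of tumors 2 and 3. In KPC replicates 1 and 2 alone, where 3174 of 12429 genes passed, Trib3 was 1.38 and Trib2 0.62, and in replicates 3 and 4 alone Trib3 was -1.03 and Trib1 -0.17. Without single KPC libraries, Trib3 ranged from -0.17 to 0.74, Trib2 from -0.21 to 0.11 and Trib1 from -0.17 to 0.18. With group means kept, r was 0.64 for MYC with TRIB1, -0.35 for PVT1 with TRIB2, -0.0833 for TRIB1 with TRIB2 and -0.10 for TRIB2 with TRIB3. Without FOXA1-OE tumor 3 and HNF4G-KO + FOXA1-OE tumor 5, an alternative chosen after seeing the data, r was 0.35 for MYC with PVT1, 0.80 for MYC with TRIB1 and 0.26 for PVT1 with TRIB1. Without the mice farthest from the median, it was 0.92 for MYC with TRIB1 and 0.26 for PVT1 with TRIB1. The number of genes called ranged from 284 to 5595 around 1736 in HNF4G-KO against control, from 25 to 1254 around 670 in HNF4G-KO + FOXA1-OE against control, and from 0 to 28 around 8 when FOXA1-OE was added to HNF4G-KO. FOXA1-OE against control gave 0 to 3. In metastases it ranged from 0 to 213 around 6 and from 0 to 57 around 1, and in KPC lines from 0 to 3174. The cause of these changes was not tested.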
